A study of Mus musculus with 40 samples.

Results

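The urea cycle and other genes of the periportal hepatocyte were followed in the liver and kidney of male mice given phenobarbital (PB). The members were all probe sets annotated to Cps1, Otc, Ass1, Asl, Arg1, Gls2, Hal, Sds, Sdsl and Cdh1, by symbol or older synonym, and 7 of the 10 genes had at least 1 probe set in the annotation used, with 10 probe sets in all of 45037. Gls2, Sds and Sdsl were not matched there and were not analysed here. Each of 9 probe sets carried 1 symbol, and 1416239_at was annotated both to Ass1 and to Gm5424, a transcribed pseudogene of Ass1. Signal from these 2 cannot be told apart in 1416239_at, which was therefore kept out of gene counts and is described as the Ass1/Gm5424 probe set.

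The animals were 20 male B6C3F1/Crl mice, the cross of a C57BL/6 male with a C3H/He female, aged 29 to 32 days at receipt and acclimatised for 5 days. PB at 0.05% (w/v) was in the drinking water of 10 mice for 28 days, and the other 10 were controls over the same period. Liver and kidney of every mouse were each hybridised to an Affymetrix array, which gave 4 groups of 10 tissues. Values are MAS5 signals in array units, which have no fixed meaning between probe sets. Groups are therefore compared within the same probe set, or within a fixed sum of marker probe sets. Such a sum follows mostly its brightest probe sets and does not give the amount of a cell type. Brighter and weaker refer to signal alone.

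The urea cycle disposes of the ammonia that amino acid breakdown releases. Cps1 and Otc act in the mitochondrion to make citrulline, and Ass1, Asl and Arg1 then carry it through argininosuccinate and arginine to urea in the cytosol. In the liver the cycle is strongest in hepatocytes near the portal vein, where glutaminase (Gls2), histidine ammonia-lyase (Hal), the serine dehydratases (Sds, Sdsl) and E-cadherin (Cdh1) also lie. Hepatocytes around the central vein lack most of this machinery and bind residual ammonia into glutamine. The kidney has no full urea cycle, but its proximal tubules use Ass1 and Asl to make arginine from circulating citrulline. PB is a barbiturate that activates the nuclear receptor CAR, and its best known liver targets are pericentral drug-metabolising enzymes.

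Upstream sequence was at hand for 3 members, Otc and Hal, which were measured in liver and not in kidney, and Ass1, which was measured in both tissues. It is shown because Otc and Hal differed far more between tissues than between treatments, which was not so for Ass1. The 250 bases before the RefSeq start are from mouse build GRCm38.p6, all on the + strand, at chrX:10252055-10252304 for Otc, chr10:93488518-93488767 for Hal and chr2:31470020-31470269 for Ass1. Capitals mark matches on either strand to 5 short motifs, which were TATAAA (the TATA box), then CCAAT, then GGGCGG (the GC box), then TGACG (part of the CREB site) and the E box CACGTG.
Otc: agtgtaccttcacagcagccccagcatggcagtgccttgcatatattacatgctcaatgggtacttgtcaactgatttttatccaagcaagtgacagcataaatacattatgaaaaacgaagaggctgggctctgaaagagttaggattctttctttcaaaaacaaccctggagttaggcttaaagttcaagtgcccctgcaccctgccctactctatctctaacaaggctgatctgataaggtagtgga
Hal: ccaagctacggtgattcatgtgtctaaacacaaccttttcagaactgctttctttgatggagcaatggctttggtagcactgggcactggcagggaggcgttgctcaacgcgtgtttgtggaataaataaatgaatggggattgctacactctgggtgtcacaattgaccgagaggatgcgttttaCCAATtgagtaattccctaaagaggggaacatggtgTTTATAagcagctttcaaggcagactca
Ass1: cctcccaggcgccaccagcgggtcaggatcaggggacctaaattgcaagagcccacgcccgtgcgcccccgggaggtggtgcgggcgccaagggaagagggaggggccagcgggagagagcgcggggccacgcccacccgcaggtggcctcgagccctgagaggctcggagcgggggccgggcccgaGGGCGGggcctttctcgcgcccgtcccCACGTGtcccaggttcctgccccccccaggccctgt
The Ass1 window was 75.6% G or C and held 23 CpG dinucleotides, against medians of 52.4% and 6 over 32851 mouse promoter windows of the same length. Hal held 6 CpG at 45.6% G or C, and Otc held 1 at 43.6%. Hal had the TATAAA motif on the opposite strand 28 to 23 bases before the start, where 12.4% of all windows hold it somewhere, and CCAAT at 64 to 60 bases (33.8% of windows). Ass1 had GGGCGG at 63 to 58 bases (32.7% of windows) and CACGTG at 36 to 31 bases (6.02% of windows), and none of the 5 motifs was found in the Otc window. TGACG, which 17.8% of windows hold, was in none of the 3.

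The levels of these genes differed most between the tissues. In control mice Cps1, Otc, Arg1 and Hal were liver transcripts, while Ass1, Asl and Cdh1 were measured in liver and kidney alike. Mitochondrial carbamoyl-phosphate synthetase, Cps1, ranged from 13126 to 16546 in control livers (median 14731) and from 2.9 to 64.0 in control kidneys (median 27.8). Arg1, the arginase that releases urea, lay between 9431 and 15344 in control livers (median 12729) and between 0.5 and 25 in control kidneys (median 2.40). Liver and kidney did not overlap for either gene.

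Otc, ornithine transcarbamylase, was read by 3 probe sets. The brightest, 1420525_a_at, ranged from 6641 to 9016 in control livers (median 8348) and from 4.1 to 25 in control kidneys (median 13.1). Probe set 1436615_a_at ranged from 5372 to 8143 in control livers (median 6891), and 1425540_at from 138 to 224 (median 190), with control kidneys reaching 22.9 and 9.9. All 3 therefore separated liver from kidney. Hal, the first enzyme of histidine breakdown, ranged from 1383 to 2540 in control livers (median 1965) and from 1.6 to 19.3 in control kidneys (median 11.2).

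**Figure D1:**
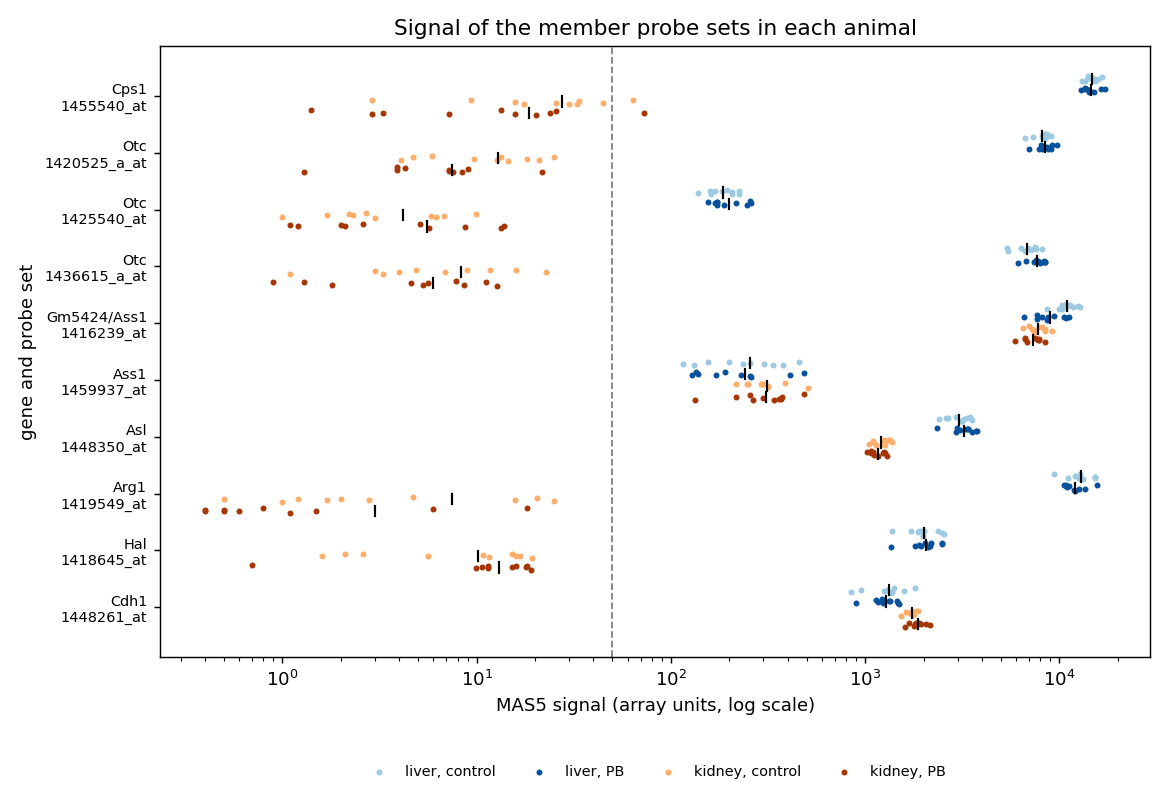
MAS5 signal (log axis, array units) of the 10 member probe sets in each of 40 tissues, with 10 points per group and a black bar at the group mean. The dashed line is a signal of 50, below which a group mean was taken as not measured. Cps1, Otc, Arg1 and Hal lie right of the line in liver and have kidney means left of it, while Ass1, Asl and Cdh1 lie right of it in all 4 groups.

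Because mean kidney signals of these genes were under 50, the level below which the authors set probe sets aside, only a lower bound on the ratio was taken. Liver was at least 294-fold higher for Cps1, at least 164-fold for Otc (1420525_a_at), at least 260-fold for Arg1 and at least 40.5-fold for Hal, as the liver mean over 50. In all 6 such probe sets the adjusted p in limma was below the threshold, the highest being 1.15e-13 for Otc 1425540_at. They had entered that test through their liver means alone, so these calls add nothing to the levels given.

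Asl, argininosuccinate lyase, ranged from 2398 to 3556 in control livers (median 3134) and from 1049 to 1369 in control kidneys (median 1241), with no overlap. Liver was 2.50-fold higher in the fit on log2 signal (95% interval 2.26 to 2.76, limma adjusted p = 3.11e-14). Cdh1 was lower in liver, at 849 to 1809 (median 1350) against 1533 to 1881 in kidney (median 1771). Its log2 difference was -0.42 (SE 0.10, limma adjusted p = 0.000438), and 8 of 10 control livers lay below every control kidney.

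The Ass1/Gm5424 probe set ranged from 8632 to 12710 in control livers (median 10872) and from 6524 to 9178 in control kidneys (median 7627). Its log2 difference of liver over kidney was 0.49 (SE 0.07, limma adjusted p = 6.12e-07), and after quantile normalization of all arrays it turned to -0.19 with an adjusted p of 0.000576, so that no direction is given for it. The weaker Ass1 probe set 1459937_at had control medians of 246 in liver and 299 in kidney, with a log2 difference of -0.38 (95% interval -0.82 to 0.07). That difference did not pass the test (adjusted p = 0.114), and it passed when animal 10 was left out (-0.49, adjusted p = 0.0427). With the Ass1/Gm5424 probe set, 8 of the 10 member probe sets were called higher in liver and 1 lower (7 and 2 after quantile normalization), among 21188 tested probe sets of which 78.2% were called, 35.0% higher and 43.2% lower in liver. The blocked fit, in which each animal served as its own control, gave the same count of 9. Member probe sets with kidney means under 50 had entered both fits through liver alone, so their calls are no added support.

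In the liver the signal of the urea cycle enzymes under PB lay close to that of controls. None of the 7 genes passed the test at its brightest probe set with 1 symbol, and 14.2% of 9975 genes did. With so few genes this count does not set the members apart from that share. Ass1 was read in the count by its weaker probe set, because the brighter Ass1/Gm5424 probe set was kept out of gene counts. Of the 10 probe sets 1 was called, the Ass1/Gm5424 probe set, which fell, and over all 18981 probe sets tested 12.3% were called, 6.43% as lower. Of all liver calls 47.8% were higher, and 36.8% after centring each array on its median. At an unadjusted p under 0.05 there were 2, the second being Otc 1436615_a_at. Student's test, run on log2 and on linear signal because the study's methods name a t-test without its form or scale, also called 1 each after Benjamini-Hochberg adjustment, and under the study's own thresholds of 1.5-fold and p of 0.001 no member passed. Over the 10 probe sets the median log2 fold change was 0.00, and over all probe sets tested it was -0.01.

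Cps1, the entry point of the cycle, ranged from 12935 to 17288 in PB livers (median 14234) beside the control median of 14731. The log2 fold change was -0.02 (SE 0.05, limma adjusted p = 0.855), and its 95% interval ran from 0.916-fold to 1.06-fold. Arg1, at its end, ranged from 10627 to 15594 in PB livers (median 11540), and its log2 fold change was -0.11 with an interval of 0.824-fold to 1.05-fold (adjusted p = 0.438). For both genes PB and control livers covered nearly the same span.

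Asl ranged from 2348 to 3774 in PB livers (median 3336), a log2 fold change of 0.09 with an interval of -0.08 to 0.26 on that scale (adjusted p = 0.521). Hal ranged from 1358 to 2501 (median 2075), a log2 fold change of 0.02 with an interval of 0.871-fold to 1.18-fold (adjusted p = 0.923). Cdh1, which holds hepatocytes to each other at adherens junctions, ranged from 899 to 1501 (median 1278), a log2 fold change of -0.04 with an interval of 0.828-fold to 1.14-fold (adjusted p = 0.859). A missed threshold does not show that these genes were equal in both groups. The intervals of Cps1, Asl, Arg1, Hal and Cdh1 leave room for changes of at most about 20% in either direction, while that of Ass1 1459937_at was wider, from 0.634-fold to 1.36-fold.

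The 3 Otc probe sets did not give the same size of difference. In PB livers 1420525_a_at ranged from 6961 to 9746 (median 8399), with a log2 fold change of 0.05 (95% interval -0.08 to 0.17, adjusted p = 0.662). Probe set 1436615_a_at ranged from 6137 to 8437 (median 7839), with a log2 fold change of 0.18 (0.03 to 0.34) and an adjusted p of 0.106. It passed the test when PB animal 13 was left out (0.22, adjusted p = 0.0424). The dimmest, 1425540_at, ranged from 155 to 259 (median 180), with 0.09 (-0.13 to 0.32). Across the 10 control livers 1420525_a_at and 1436615_a_at did not move together (r = -0.15), nor across the 10 PB livers (r = -0.12), while 1420525_a_at and 1425540_at had r = -0.24 in control and r = 0.68 in PB livers.

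The Ass1/Gm5424 probe set fell. It ranged from 6559 to 11201 in PB livers (median 8706) beside 8632 to 12710 in controls (median 10872), and 4 of 10 PB livers lay below every control. The groups overlapped. Its mean signal was 10929 ± 1230 in controls and 8951 ± 1544 under PB (SD, n = 10 each), a log2 fold change of -0.30 (SE 0.09, limma adjusted p = 0.0268) or 0.813-fold with an interval of 0.716 to 0.922. The call was near the threshold. It was lost without control animal 3 (-0.27, adjusted p = 0.0510), with no filter on low signal (adjusted p = 0.0584) and by Welch's test on log2 signal after adjustment (p = 0.0552). Welch's test does not pool the variance of the groups and shares none over probe sets. Ass1 1459937_at, which ranged from 128 to 486 in PB livers (median 211) and from 116 to 457 in controls, had a log2 fold change of -0.11 with an interval of -0.66 to 0.44 that includes the fall of the brighter probe set. The 2 probe sets did not track each other across control livers (r = 0.10) or PB livers (r = -0.18). Whether the fall belongs to Ass1 or to Gm5424 cannot be told apart here.

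**Figure D2:**
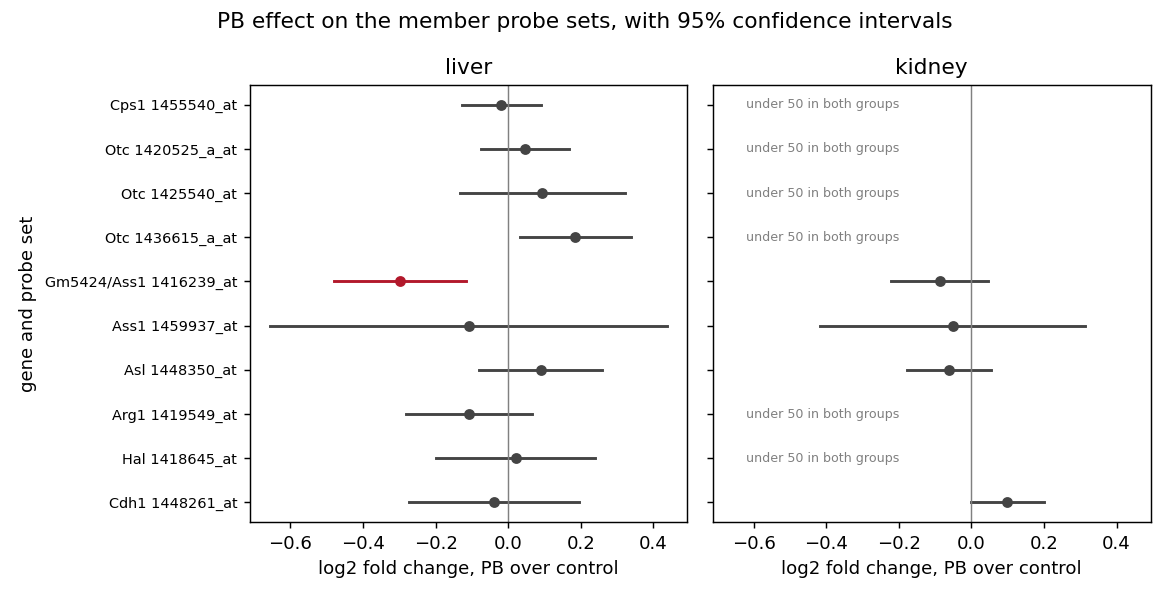
Log2 fold change of PB over control with its 95% interval for the 10 member probe sets in liver (left) and kidney (right), from limma with 10 animals per group. The Ass1/Gm5424 probe set in liver, at -0.30, is drawn in red as the sole call, and 6 probe sets with both kidney means under 50 were not tested there.

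In the kidney 4 member probe sets were tested, and none was called. The count at an unadjusted p under 0.05 was also 0, and so was that of Student's test on log2 and on linear signal after adjustment. Over 19229 kidney probe sets 3.26% were called. Of all kidney calls 55.0% were higher, and 72.3% after median centring. Asl ranged from 1029 to 1293 in PB kidneys (median 1142) beside a control median of 1241, a log2 fold change of -0.06 with an interval of 0.884-fold to 1.04-fold. The Ass1/Gm5424 probe set ranged from 5919 to 8411 (median 7572) beside a control median of 7627, with -0.09 and an interval of 0.858-fold to 1.03-fold. Ass1 1459937_at ranged from 133 to 486 (median 319), with -0.05 (95% interval -0.42 to 0.31). Cdh1 ranged from 1612 to 2157 (median 1851), with 0.10 (95% interval 0.00 to 0.20, limma adjusted p = 0.285), and 4 of 10 PB kidneys lay above every control. Cps1 stayed under a mean of 50 in PB kidneys, with 1 animal at 72.8, and Otc, Arg1 and Hal stayed under 50 in every kidney.

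The PB effect of the members did not pass a test of the difference between tissues. For the Ass1/Gm5424 probe set the liver effect minus the kidney effect was -0.21 on the log2 scale (SE 0.11, limma adjusted p = 0.302), with an interval of -0.44 to 0.02. The fall seen in liver is thus not shown to be particular to it. For Asl the difference was 0.15 (-0.05 to 0.36), for Cdh1 -0.14 (-0.40 to 0.12) and for Ass1 1459937_at -0.06 (-0.74 to 0.63). Over all 21866 probe sets in this test 6.21% were called.

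Genes that feed the cycle were read from a list of 14, of which 11 were tested in liver. Glud1, the mitochondrial glutamate dehydrogenase that frees ammonia from glutamate, fell and was the sole call. In controls 1448253_at ranged from 6753 to 8045 (median 7797) and in PB livers from 5803 to 7365 (median 6800), and every PB liver lay below the control median. Its log2 fold change was -0.19 (SE 0.05, limma adjusted p = 0.0104), and the other Glud1 probe set, 1416209_at, gave -0.21 (SE 0.04, adjusted p = 0.00223). Its call held under all 33 alternatives run in liver. The median over the 11 genes was -0.06. Among 9975 genes tested in liver 6.45% were called higher and 7.72% lower.

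Other steps of ammonia supply and transport in that list did not pass. Nags, which makes the activator of Cps1, had means of 601 and 580 in control and PB livers (log2 fold change -0.05), and Slc25a15, the ornithine carrier of the mitochondrion, had 4718 and 4737 (0.01). Got1, the cytosolic aspartate aminotransferase, had 1641 and 1305 (-0.34, adjusted p = 0.0954), and Oat, which turns ornithine into glutamate, had 3709 and 4433 (0.28, adjusted p = 0.239). In kidney 0 of 8 tested genes of the list were called, where 3.74% of 10082 genes were, 2.17% higher and 1.57% lower. For Glud1 1448253_at the liver effect differed from the kidney effect by -0.26 (SE 0.06, adjusted p = 0.00237), while for 1416209_at the difference was -0.15 (adjusted p = 0.212).

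The steps of histidine breakdown after Hal gave no call in liver, with 3 of 4 genes tested. Means in control and PB livers were 1944 and 1935 for Uroc1, the urocanate hydratase, 1401 and 1411 for Amdhd1 and 4342 and 4474 for Ftcd. Log2 fold changes lay between -0.01 and 0.05, beside 0.02 for Hal itself. In kidney Uroc1 and Ftcd were tested, with log2 fold changes of 0.20 (adjusted p = 0.202) and 0.22 (adjusted p = 0.259).

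Among 25 tested genes of other amino acid breakdown, 2 rose in liver and none fell. Agxt2, a mitochondrial aminotransferase that takes glyoxylate, ranged from 1321 to 1695 in control livers (median 1493) and from 1869 to 2523 in PB livers (median 2150), with no overlap. Its log2 fold change was 0.51 (SE 0.06, limma adjusted p = 3.58e-06). Gpt, the cytosolic alanine aminotransferase, ranged from 1087 to 2042 in controls (median 1680) and from 1749 to 2329 under PB (median 2013), and all 10 PB livers lay above the control median. It rose by 0.32 on the log2 scale (SE 0.09, adjusted p = 0.0153), and its dimmer probe set 1453216_at gave 0.78 (adjusted p = 0.0128).

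In kidney 3 of 21 tested genes of the same list rose and none fell. Etnppl, a phospho-lyase of phosphoethanolamine, went from 67.6 to 93.0 in controls to 93.2 to 153 under PB with no overlap (log2 fold change 0.54, SE 0.09, limma adjusted p = 0.00232, and 0.0925 with all 40 arrays in 1 fit). Its highest control and its lowest PB kidney were thus 0.2 units apart. Hpd, which acts in tyrosine breakdown, ranged from 786 to 1510 in controls and from 1278 to 1728 under PB (0.47, SE 0.09, adjusted p = 0.00651). Gpt2, the mitochondrial alanine aminotransferase, ranged from 218 to 345 and from 273 to 352 (0.30, SE 0.08, adjusted p = 0.0396), and this call was lost when any of 12 single kidneys was left out (controls 2, 3, 4, 7, 8, 9 and 10, PB animals 11, 12, 15, 16 and 18), with adjusted p between 0.0583 and 0.0737. With every kidney kept, Student's test did not call Gpt2 on linear (adjusted p = 0.0743) or log2 signal (0.0647). Neither did Welch's test (0.0813). In limma the Gpt2 call was lost without the signal filter (0.0741) and when livers and kidneys were fitted together (0.0547). Of the other Gpt2 probe sets in kidney, 1455007_s_at (0.45, limma adjusted p = 0.00675) and 1434542_at (0.40, adjusted p = 0.0460) were also called higher. Probe set 1439029_at was not (0.14, adjusted p = 0.503). The call of 1455007_s_at held under all 33 alternatives, and that of 1434542_at was lost under 20 of 32. In liver 1438385_s_at, the first of these Gpt2 probe sets, had -0.10 (adjusted p = 0.428). There 1434542_at fell by 0.33 on the log2 scale (adjusted p = 0.0170), so the 4 probe sets of this gene were not alike in their liver calls.

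**Figure D3:**
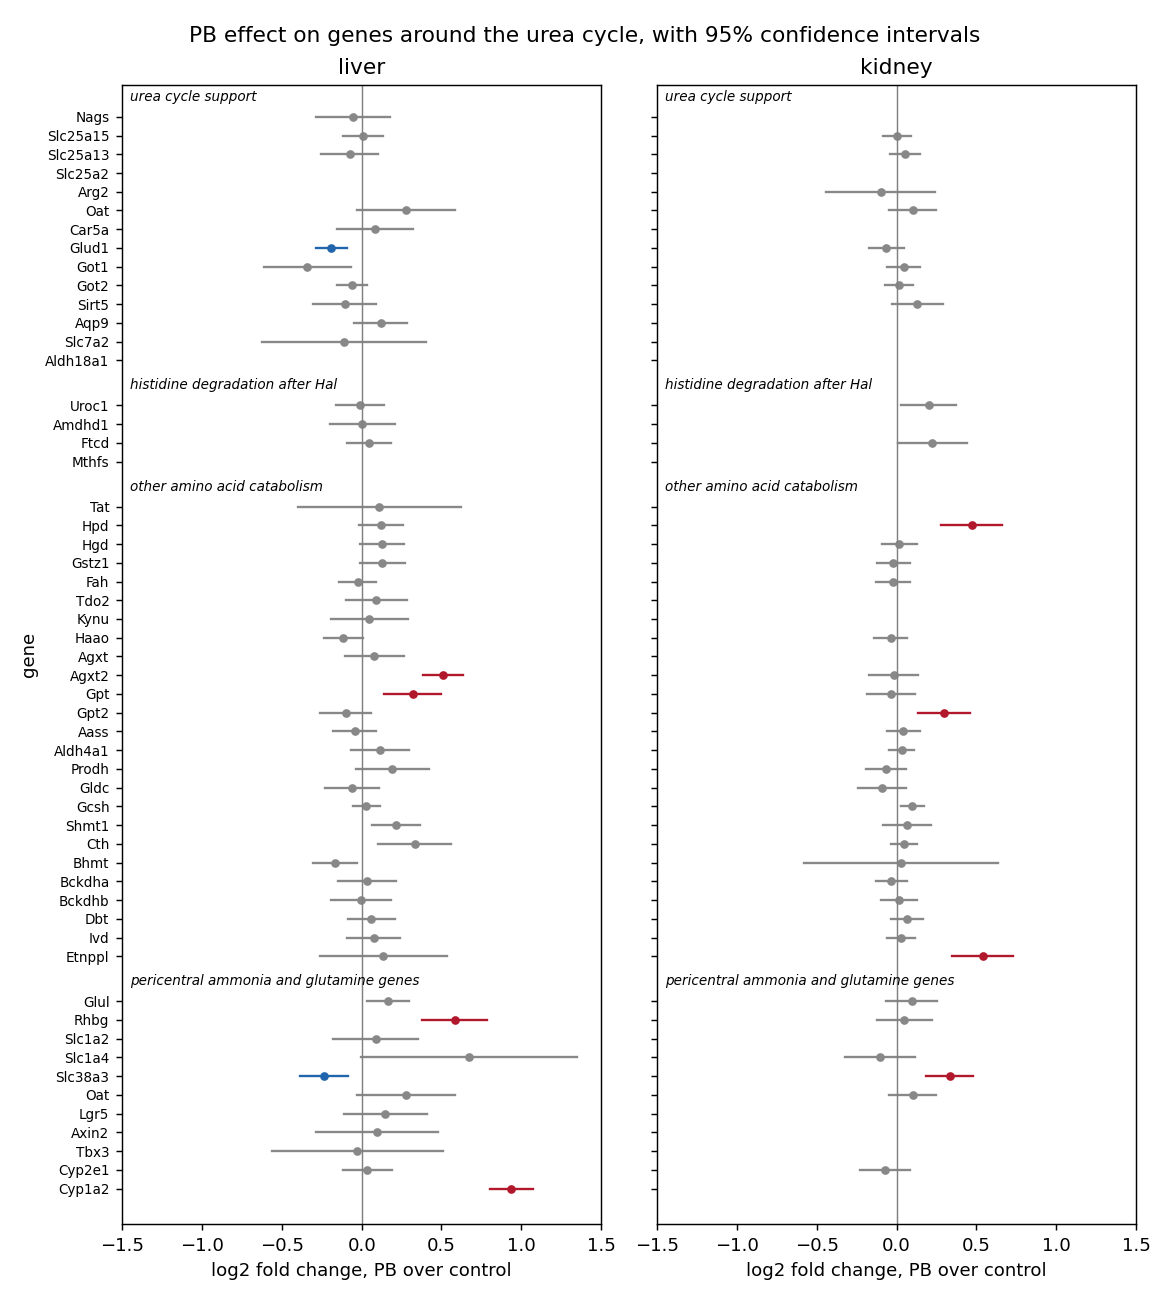
Log2 fold change of PB over control with its 95% interval for genes that feed the urea cycle, of histidine and other amino acid breakdown and of pericentral ammonia handling, in liver (left) and kidney (right). Red marks genes called higher and blue genes called lower, and a gene with no mark had both group means under 50. In liver Agxt2, Gpt, Rhbg and Cyp1a2 lie right of 0 as calls and Glud1 and Slc38a3 left of it.

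Other periportal genes were read from a list of 12, all tested in liver, of which 1 rose and 1 fell. Sult5a1, a sulfotransferase, ranged from 409 to 733 in controls (median 563) and from 667 to 1027 under PB (median 898), a log2 fold change of 0.57 (SE 0.10, limma adjusted p = 0.000291). G6pc, the glucose-6-phosphatase that releases glucose, ranged from 1023 to 4300 in controls (median 2689) and from 750 to 2433 under PB (median 1260). It fell by 0.86 on the log2 scale (SE 0.26, adjusted p = 0.0294), and the call was lost when any of 7 livers was left out (controls 4, 9 and 10, PB animals 11, 12, 13 and 17), with adjusted p between 0.0515 and 0.0545. With all livers kept, Student's test did not call G6pc on linear (adjusted p = 0.0594) or log2 signal (0.0624). Neither did Welch's test (0.0646) or limma with robust eBayes (0.0539). In kidney 1 of 7 tested genes rose. That was Pigr, the carrier of secreted immunoglobulin A, which ranged from 698 to 1223 in control and from 1462 to 2442 in PB kidneys with no overlap (0.95, SE 0.10, adjusted p = 1.36e-05).

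On the pericentral side 2 of 11 tested genes rose in liver and 1 fell. Cyp1a2, a drug-metabolising enzyme kept in this list for its zone, ranged from 4058 to 6352 in controls and from 9165 to 12342 under PB, with no overlap (0.94, SE 0.07, limma adjusted p = 3.29e-10, and 0.0746 with all 40 arrays in 1 fit). The fit of all 40 arrays takes its variance from kidney as well, where both group means of Cyp1a2 were under 50. Rhbg, an ammonia channel of pericentral hepatocytes, ranged from 119 to 215 in controls (median 155) and from 178 to 271 under PB (median 229), and 9 of 10 PB livers lay above every control (0.58, SE 0.10, adjusted p = 0.000288). Glul, the glutamine synthetase, had means of 5247 and 5873 and did not pass (0.17, SE 0.06, adjusted p = 0.0919). Cyp2e1, another pericentral gene, had 20455 and 20936 (0.03).

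Slc38a3, a glutamine transporter, was called in opposite directions in the 2 tissues. In liver it ranged from 6348 to 8872 in controls (median 8217) and from 5773 to 7907 under PB (median 6575), a fall of 0.24 on the log2 scale (SE 0.07, limma adjusted p = 0.0324). In kidney it ranged from 188 to 271 in controls (median 235) and from 222 to 336 under PB (median 295), a rise of 0.33 (SE 0.07, adjusted p = 0.0125). The difference of effects was -0.57 (SE 0.10, adjusted p = 0.000276). The liver call was lost when any of 9 livers was left out (controls 4, 5, 8 and 10, PB animals 11, 12, 15, 16 and 17), with adjusted p between 0.0509 and 0.0617, while the kidney call and the difference were kept under every alternative run for them. With all livers kept, the liver call was lost by Student's test on log2 signal (adjusted p = 0.0508) and by Welch's test (0.0536). In limma it was lost with no filter (0.0749). The dimmer probe set 1446013_at was not called in liver (-0.18, limma adjusted p = 0.332).

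Among 12 tested regulators of the members in liver, 1 fell. Foxo1, a transcription factor restrained by insulin, ranged from 299 to 392 in controls (median 354) and from 246 to 376 under PB (median 281), with 7 of 10 PB livers below every control (-0.26, SE 0.08, limma adjusted p = 0.0232). Means in control and PB livers were 1671 and 1727 for Cebpa (0.07), 4928 and 4359 for Hnf4a (-0.17, adjusted p = 0.112) and 1277 and 925 for Cebpb (-0.44, adjusted p = 0.0598), and these did not pass. Cebpb passed when control 5, 6 or 7 or PB animal 12 was left out, with adjusted p between 0.0151 and 0.0487. In kidney 0 of 12 were called.

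Of 5 tested partners of Cdh1 in liver, 1 fell. Ctnnd1, the p120 catenin that binds the tail of E-cadherin, ranged from 230 to 291 in controls and from 186 to 235 under PB (-0.26, SE 0.07, limma adjusted p = 0.0119), and its other probe set 1422450_at gave -0.02 (adjusted p = 0.897). Ctnnb1 had means of 4164 and 3969 in control and PB livers, and Ctnna1 had 1548 and 1550. In kidney 0 of 6 were called. Among 8 tested genes of renal arginine, creatine and glutamine handling, 3 fell in liver, namely Glud1, Slc38a3 and Ddah1. Ddah1, which clears methylated arginines, went from 603 to 1473 in controls (median 1149) to 368 to 961 under PB (median 703), a log2 fold change of -0.70 (SE 0.15, adjusted p = 0.00378). In the kidney, the tissue the list was drawn for, 1 of 11 was called, which was Slc38a3.

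Animal-to-animal variation of the members was examined within each liver group, with 21 gene pairs in each of 2 groups, 42 relations in all, and p-values adjusted over the 42. Of these, 7 passed by Pearson's r and 3 by Spearman's rho in permutation tests. Cps1 and Otc were correlated in control livers (r = 0.84, permutation p = 0.00143, adjusted 0.0120, rho = 0.94, p = 0.000320, adjusted 0.0134) and in PB livers (r = 0.87, permutation p = 0.000580, adjusted 0.0112, rho = 0.89, p = 0.00127, adjusted 0.0267). Without the 2 animals farthest from the median of Cps1, r was 0.70 and 0.83. Otc was read here and below by 1420525_a_at. Its other bright probe set, 1436615_a_at, did not follow it (r = -0.15 in control and -0.12 in PB livers). The relations of Otc are therefore shown for 1420525_a_at alone.

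Asl and Arg1 were correlated in control livers (r = 0.87, permutation p = 0.00107, adjusted 0.0112, rho = 0.82, p = 0.00614, adjusted 0.0645), with r of 0.76 without 2 animals. In PB livers the further pairs were Cps1 and Arg1 (r = 0.93, permutation p = 0.000310, adjusted 0.0112, rho = 0.79, p = 0.00880, adjusted 0.0739), Otc and Asl (r = 0.89, permutation p = 0.000800, adjusted 0.0112, rho = 0.77, p = 0.0122, adjusted 0.0857) and Otc and Arg1 (r = 0.82, permutation p = 0.00342, adjusted 0.0239, rho = 0.84, p = 0.00341, adjusted 0.0477). Without 2 animals these were 0.70, 0.71 and 0.79. Arg1 and Cdh1 ran against each other in control livers (r = -0.82, permutation p = 0.00419, adjusted 0.0251, rho = -0.72, p = 0.0237, adjusted 0.111), with -0.67 without 2 animals, and in PB livers r was -0.15. Whether any r differed between control and PB livers was not tested.

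**Figure D4:**
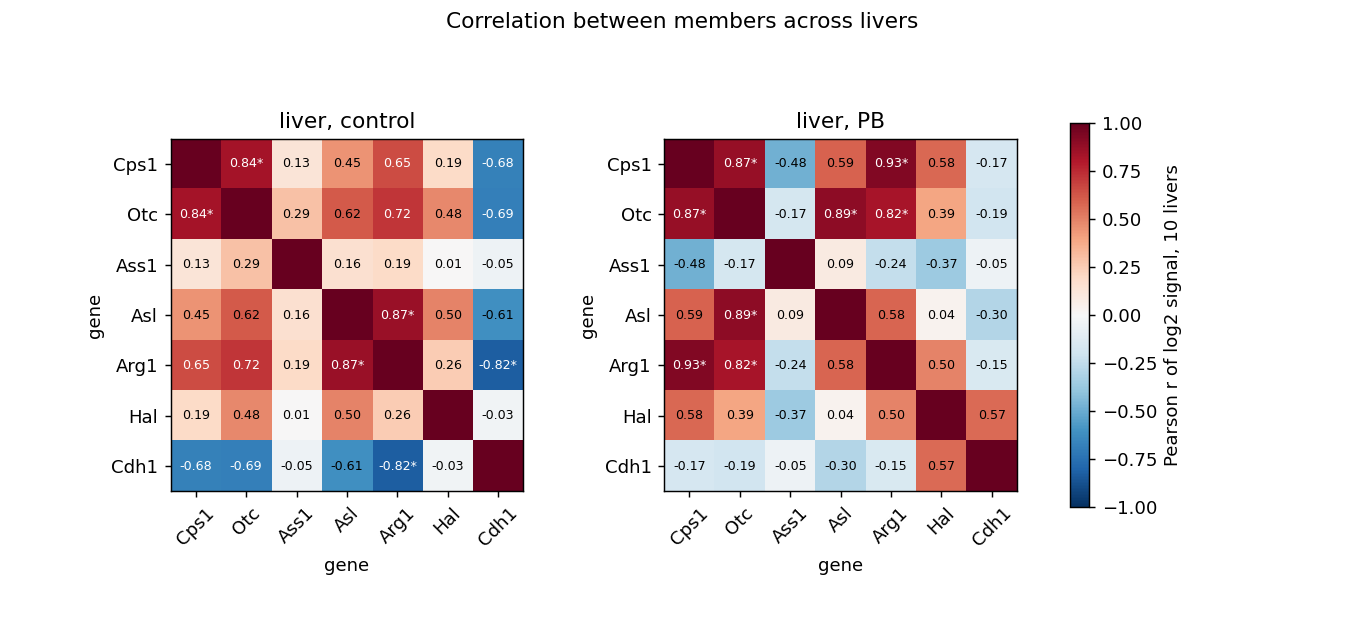
Pearson r of log2 signal between the 7 members over 10 control livers (left) and 10 PB livers (right), each gene read by its brightest probe set with 1 symbol. An asterisk marks an adjusted permutation p under 0.05. Cps1, Otc, Asl and Arg1 form the block of positive values, Ass1 1459937_at stands outside it, and Cdh1 is negative to Cps1, Otc, Asl and Arg1.

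The pairs share arrays, and the scale of each array enters all of its genes. After quantile normalization 2 of the 7 relations were kept, Asl with Arg1 in control livers and Otc with Asl in PB livers. After median centring 6 were kept, and the 1 lost was the negative relation of Arg1 with Cdh1 in control livers. With the Ass1/Gm5424 probe set in place of Ass1 1459937_at, an alternative chosen after seeing the data, 8 of its 12 relations passed, the strongest being with Otc in PB livers (r = 0.95, permutation p = 6.00e-05, adjusted 0.00252, rho = 0.94, p = 0.000150, adjusted 0.00630).

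The genes closest in pattern were found by Pearson r over all 20 livers after each group's mean was removed, among 9974 genes, as a description. Cps1 lay nearest to Uqcrq (r = 0.92), Car3 (0.92) and Cox5b (0.91), of which Uqcrq and Cox5b are subunits of the respiratory chain. Otc lay nearest to Micos10 (0.94), Aldh7a1 (0.93) and Mettl26 (0.93), and Arg1 to Gnmt (0.94), Uqcrc2 (0.92) and Ahcy (0.91). The Ass1/Gm5424 probe set lay nearest to Sdhb (0.95), Ndufs1 (0.94) and Atp5g1 (0.94), again of the mitochondrial inner membrane. Asl lay nearest to Pipox (0.87), Aldh7a1 (0.84) and the arginine transporter Slc7a2 (0.83), and Hal to Lta4h, Sco2 and Hsd3b7 (0.79 each). Cdh1 lay nearest to Glul (0.78), Mrgbp (0.78) and Qars (0.78), and Ass1 1459937_at to Nr4a1 (0.78), G6pc (0.77) and Slc25a25 (0.72).

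Between members on the same scale, Cps1 with Otc had r = 0.85, which 0.351% of genes reached with Cps1 and 0.501% with Otc. Asl with the Ass1/Gm5424 probe set had 0.81, reached by 0.0602% of genes with Asl and by 0.832% with that probe set. Cps1 with Hal had 0.40, which 12.4% of genes reached with Cps1. Beside the median r of 0.00 between Cps1 and all genes, Cps1 with Cdh1 had -0.41.

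The treatment labels and the tissues were checked on marker genes. Cyp2b10, the classical CAR target, ranged at its probe set 1425645_s_at from 15.7 to 49.5 in control and from 9731 to 12774 in PB livers, and its kidney means were 44.5 and 32.6. Of 7 hepatocyte markers tested in liver 1 fell (Fgb, -0.29, limma adjusted p = 0.00574, and 0.818 with all 40 arrays in 1 fit), with a summed signal of 128940 to 170096 in control and 114722 to 169529 in PB livers. The fit of all 40 arrays takes its variance from kidney as well, where both group means of Fgb were under 50. Of 9 kidney tubule markers 7 were under 50 in liver, and all 9 were tested in kidney with 0 called. Bile duct cells also carry Cdh1. Of 6 bile duct markers 5 were under 50 in liver, and the sum ran from 150 to 226 in controls and from 131 to 203 under PB.

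Of 6 tested stellate cell and fibroblast markers 5 fell in liver, namely Dcn, Lrat, Reln, Pdgfrb and Des, where 7.72% of 9975 genes were called lower. The sum ran from 2756 to 3480 in controls and from 2249 to 3098 under PB. The endothelial marker Stab2 also fell (-0.38, adjusted p = 0.000331), 1 of 5 tested, with sums of 1481 to 2035 and 1429 to 1935. Of 6 macrophage markers and 1 red blood cell marker tested none was called, with sums of 2263 to 4071 and 853 to 1411 in controls and 1774 to 4188 and 1066 to 1277 under PB. Their part in the changes of Glud1, Ctnnd1 or the Ass1/Gm5424 probe set was not tested, and in whole tissue fewer cells of a type and less RNA per cell cannot be told apart. Des had a log2 fold change of -1.14 with a mean of 34.0 in PB livers, and with signals floored at 50 it was -0.25 (adjusted p = 0.141). It was not called either with no filter, by Student's test on either scale or by Welch's test. The call of Des was lost as well when any of 12 livers was left out (all but controls 2 and 5 and PB animals 13, 14, 15, 17, 18 and 19), with adjusted p between 0.0533 and 0.0746. That of Reln was lost for any of 7 (controls 1, 3 and 6 and PB animals 11, 12, 16 and 17), with adjusted p between 0.0507 and 0.0577, and with no filter (limma adjusted p = 0.0559). That of Pdgfrb was lost for any of 14 (all but controls 2, 5, 9 and 10 and PB animals 15 and 16), with adjusted p between 0.0535 and 0.0710. With all livers kept, Pdgfrb was not called by Student's test on linear signal (adjusted p = 0.0931) or by Welch's test (0.0658). In limma with no filter it was not called either (0.0959). In kidney 1 of 6 tested hepatocyte markers was called, Apoh, which fell (-0.46, adjusted p = 0.0126). Over the 6 the median log2 fold change was also -0.46, with a range of -1.18 to 0.08, so low values were not confined to Apoh. Their summed signal of 7464 to 14278 in control and 7899 to 11449 in PB kidneys came mostly from Ttr, with a control mean of 9704, and the other 6 had control means of 18.1 to 387.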

How the data were processed

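Total RNA of 20 livers and 20 kidneys was hybridised to Affymetrix Mouse430_2 arrays. The authors deposited linear MAS5 signal intensity of 45037 probe sets, made with GCOS, every array brought to the same trimmed mean, 150. MAS5 removes background and mismatch signal, so low signals are noisy, and the scaling hides changes of total RNA. Names came from the platform annotation (34945 probe sets with 1 symbol, 932 with several, 9160 with none), updated by Entrez number.

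Signals were floored at 1 and taken to log2. As in the study's methods, probe sets with a mean under 50 in both groups were left out. Effects were tested with limma 3.58.1 in R 4.3.3 (lmFit and eBayes with trend) and called at an adjusted p under 0.05 (Benjamini-Hochberg over all probe sets tested), with 10 animals per group and tissue. Correlations used 100000 permutations, two-sided. A gene was read by its brightest probe set with 1 symbol in each tissue. The text names all member probe sets, every called gene of the list feeding the cycle, and up to 3 called genes with the largest change per tissue of each further list, with Dcn, Reln and uncalled genes given for context chosen after their values were seen. The members and lists were chosen with earlier results of these data known.

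Liver and kidney of a mouse share a donor number in the labels. The main fits of the tissue contrast and of the difference of effects did not use this pairing. Fits with animal as a block were run as alternatives. Over 16344 probe sets the correlation of deviations from group means within an animal had a median of 0.08 (-0.07 to 0.19). The number of arrays limits the precision. Alternatives changed the filter (100 or none), the floor (20 or 50), the offset (16), scaling, test, array number as covariate and single animals left out. Promoter windows came from RefSeq (GRCm38.p6), and 3 of 10 members matched.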

Additional observations from a re-analysis of the deposited data

Results flagged for a closer look

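Among the genes named by the rule and tested in both tissues, the PB effect of 10 differed between liver and kidney in limma's test of the difference (liver effect minus kidney effect, log2, 20 animals, adjusted p under 0.05). None of them is a member of the urea cycle group itself. These genes had been named for a call in liver or kidney, which favours a difference between the tissues. Over all 21866 probe sets in this test 6.21% were called. Larger in liver were Agxt2 (0.53), Rhbg (0.54) and, through a fall in kidney, Apoh (0.43). Negative differences were found for Pigr (-0.97), Gpt2 (-0.40), Slc38a3 (-0.57), Ddah1 (-0.61), Ctnnd1 (-0.39), Glud1 1448253_at (-0.26) and Des (-1.59). The value of Des was -0.52 and not called (adjusted p = 0.0920) with signals floored at 50. For the brightest probe set of each member gene and the Ass1/Gm5424 probe set, in no group with a mean of at least 50, 24 groups in all, did 1 animal lie far enough from the other 9 to pass Dixon's test.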

How the results depend on the processing

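Over the members, the genes named with a test and the main genes given for context, 2932 of 3070 recomputed values kept their direction and side of the threshold or stayed uncalled, 111 lost a call, 26 gained 1 and 1 reversed, the tissue difference of the Ass1/Gm5424 probe set after quantile normalization (-0.19). The count of member probe sets called in liver was 1. It was 0 with no filter and by Welch's test, and between 0 (without control animal 3) and 2 (without PB animal 13, which adds Otc 1436615_a_at) when single animals were left out. In kidney it was 0 throughout. Over all probe sets the kidney count of 627 was 200 with all 40 arrays in 1 fit, 335 with no filter and 367 by Welch's test, and 393 to 852 with single animals left out; the liver count of 2336 ran from 1986 to 2541. In control mice the tissue count of 16565 was 25522 with no filter, where more probe sets were tested, and of the member probe sets 9 to 10 were called with single animals left out, with 16215 to 16402 over all. With animal as a replicate block the interaction called 0 member probe sets and 1287 (fixed) or 1579 (random) of all, and the tissue contrast 9 and 16611, and the block changed no call of a member. Of correlations 7 passed, 2 after quantile normalization and 15 with the Ass1/Gm5424 probe set. Low kidney signals of Cps1, Otc, Arg1 and Hal allow no test of PB there. The cause was not tested.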
